A study of Homo sapiens with 2 samples.

Results

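The mature miRNAs described here come from 3 hairpins that lie within other genes: both arms of miR-423 and of miR-151a, and miR-671-3p. These 5 names, out of 2038 in the tables, were chosen because their values were low in the sphere library. The difference between the libraries therefore chose the members and is given as a description, with no test. The study profiled small RNA of FaDu (written FadU in the labels), an established squamous cell carcinoma line of head and neck, in 2 libraries, 1 per group. Parental cells were grown in RPMI-1640 with 10% FBS. Sphere cells, which the labels call cancer stem cells, were grown in DMEM-F12 with the supplement N2 Plus, bFGF (10 ng/ml) and EGF (10 ng/ml). Penicillin and streptomycin were in both media, each library was made from 1 µg of total RNA, and the labels name no genetic change in either group. Medium, serum and growth form changed with the group and cannot be told apart. With no replicate, no value below has a replicate check, and every interval covers counting error only.

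A miRNA hairpin is cut from a longer transcript by Drosha and then by Dicer, which leaves a duplex of the 5p and the 3p arm. As a rule one arm is loaded into an Argonaute protein and kept, and the other is degraded. A miRNA inside a protein-coding gene can be made from the host's transcript or from a promoter of its own. The loaded arm finds its target mRNAs mainly through its seed, bases 2 to 8 from its 5′ end.

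Mature sequences from RefSeq (GRCh38.p14) were matched for 3 of the 5 members. They are printed because the arms, the shared seed and the base content below are read from them, and the capitals mark the seed.
miR-423-5p: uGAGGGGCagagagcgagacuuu
miR-423-3p: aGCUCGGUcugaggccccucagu
miR-671-3p: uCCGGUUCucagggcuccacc
miR-671-5p: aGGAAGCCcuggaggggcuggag
miR-3184-5p: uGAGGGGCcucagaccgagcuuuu
miR-671-5p is the opposite arm of miR-671-3p. miR-3184 is annotated on the strand opposite to miR-423, at the same place. No 2 of the 3 matched members had the same seed. Of all other mature miRNAs in that table, only miR-3184-5p had the seed of one of them, GAGGGGC of miR-423-5p.

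The positions below are in GRCh38, since the tables hold names and no coordinates. The miR-423 arms lie at chr17:30117095-30117117 (5p) and chr17:30117131-30117153 (3p), on the plus strand. They are inside NSRP1, which encodes a splicing regulator of nuclear speckles and runs on the same strand. In GENCODE release 29, 12 of the 17 NSRP1 transcripts spanned the hairpin, and it was wholly intronic in 11 of these. Exons of 3 transcripts overlapped it, in untranslated sequence for 2 of them and in coding sequence for none. miR-671-3p lies at chr7:151238488-151238508 and its opposite arm at chr7:151238449-151238471, on the plus strand within CHPF2, a gene of chondroitin sulfate synthesis. Here 2 of the 4 CHPF2 transcripts spanned the hairpin, and in both it lay wholly within coding sequence. miR-671 is thus exonic, unlike miR-423 in most annotated transcripts. miR-151a lies within PTK2, which encodes focal adhesion kinase. The mRNAs of the hosts were not measured in these small RNA libraries.

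The values are RPKM (reads per kilobase and per 1000000 reads) as the authors deposited them. RPKM over all names summed to 26530004 for parental cells and 5509071 for spheres, 4.82 times less. For most comparisons each column was therefore rescaled to sum to 1000000 ("rescaled RPKM", a share of the miRNA signal). The most common low value, taken as 1 read of 22 nt, was 5.84 RPKM for parental cells and 8.07 RPKM for spheres. By this estimate 4542489 and 682359 reads lay on miRNAs, so sphere values are the less precise. As a check of the labelled line, all 5 epithelial miRNAs of a fixed list were measured, with a summed level of 37310 rescaled RPKM for parental cells and 83300 for spheres. In RPKM as deposited the sum of the same 5 miRNAs was lower in spheres, where miR-205-5p had 107193 RPKM against 582008 in parental cells. Of these miRNAs miR-203a and miR-141-3p were at least 2-fold higher in spheres as a share of miRNA (log2 folds of 1.43 and -0.090 as deposited). The other 3, miR-205-5p and miR-31-5p among them, lay within 2-fold. As deposited these 3 were all at least 2-fold lower in spheres, with log2 folds of -2.44 for miR-205-5p and -1.53 for miR-31-5p.

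The 5 members covered a wide range of levels. Together they made up 1.27% of the miRNA signal in parental cells (95% exact Clopper-Pearson interval of the share, 1.26% to 1.28%) and 0.525% in spheres (0.508% to 0.543%). The parental library held between 796 and 25244 estimated reads of a member, and the sphere library between 32 and 1618.

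miR-423-3p was the most abundant member in both libraries. It had 147436 RPKM in parental cells and 13066 RPKM in spheres, or 5557 and 2372 rescaled RPKM. As a share of the miRNA signal it was 2.34-fold lower in spheres (95% interval of the ratio of estimated reads, 2.23 to 2.47). Among the 2038 names its place fell from 24 to 39. In a bulk sample, a smaller part of cells with a miRNA and less of it per cell cannot be told apart.

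miR-423-5p, the other arm of this hairpin and a miRNA often detected in serum, had 103784 RPKM in parental cells and 6320 RPKM in spheres. These values are 3912 and 1147 rescaled RPKM, a 3.41-fold lower share in spheres (3.17 to 3.67). Its place fell further than that of the 3p arm, from 27 to 59.

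miR-151a-3p had 72311 RPKM in parental cells and 8833 RPKM in spheres, or 2726 and 1603 rescaled RPKM. This was the smallest deficit of the 5, 1.70-fold (1.60 to 1.81), with places of 36 and 48. miR-151a-5p was much less abundant, with 7674 RPKM and 446 RPKM, or 289 and 80.9 rescaled RPKM. Its share was 3.58-fold lower in spheres (2.73 to 4.77), on an estimated 1314 and 55 reads. Its place went from 87 to 134.

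miR-671-3p was the least abundant member. It had 4646 RPKM in parental cells and 262 RPKM in spheres, or 175 and 47.6 rescaled RPKM, a 3.68-fold lower share (2.59 to 5.40). The sphere value rests on an estimated 32 reads (95% Poisson interval 22.3 to 45.8), so this ratio is the least precise of the 5.

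**Figure D1:**
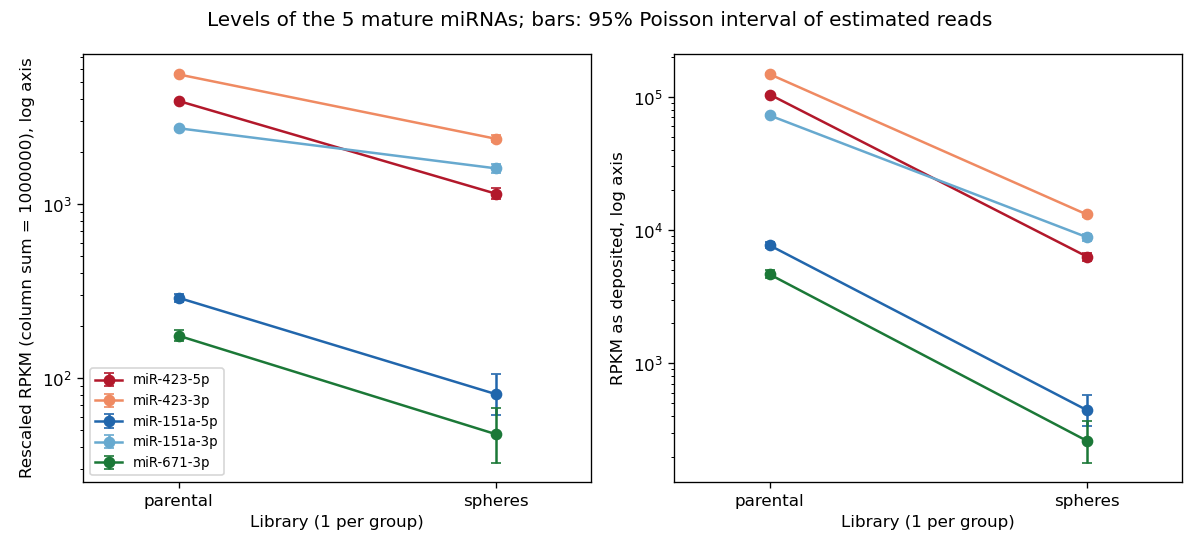
Level of each of the 5 miRNAs (points, joined by a line per miRNA) in the parental and the sphere library, as rescaled RPKM (left) and RPKM as deposited (right), both on log axes. Bars are 95% Poisson intervals of the estimated reads. All 5 lines fall on both scales, and the lines of miR-423-5p and miR-151a-3p cross.

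The order of the members differed between the libraries in 1 place. From the highest, the parental order was miR-423-3p, miR-423-5p, miR-151a-3p, miR-151a-5p and miR-671-3p. RPKM corrects for length. Ligation and amplification also depend on the sequence of a small RNA, which was not tested, so the order holds for signal and not for molecules. In parental cells miR-423-5p was 1.44 times miR-151a-3p, while in spheres it was 0.715 times miR-151a-3p. The log2 folds of these 2 miRNAs differed by -1.004 (exact conditional interval -1.14 to -0.87). No 2 neighbours in either order had overlapping counting intervals except miR-151a-5p and miR-671-3p in the spheres. The folds of miR-423-5p and miR-151a-5p lay close, with a difference of 0.07 (-0.33 to 0.50). miR-423-5p and miR-671-3p differed by 0.11 (-0.39 to 0.70), and miR-151a-5p and miR-671-3p by 0.04 (-0.61 to 0.75). These intervals include 0 but are wide, so they do not show that the 3 moved alike. Next to these 3 came miR-423-3p and then miR-151a-3p, whose folds differed by -0.46 (miR-423-3p minus miR-151a-3p, -0.58 to -0.35).

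Of the 5 members, 4 were at least 2-fold lower in spheres after rescaling. A miRNA was called measured when its rescaled RPKM averaged at least 10 over both libraries. Of the 269 such miRNAs, 19.0% passed the same 2-fold rule. Since the members were chosen from this contrast, nothing is read from the count. miR-423-3p, with a log2 fold of -1.23, lay just past the 2-fold line and miR-151a-3p, with -0.77, just short of it. Log2 folds are those of rescaled RPKM + 0.5, spheres over parental. The other 3 were miR-423-5p at -1.77, miR-151a-5p at -1.83 and miR-671-3p at -1.87, and the median of all measured miRNAs was 0.02.

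For the same 4 members, and for 6.32% of the measured miRNAs, even the near bound of the counting interval was past 2-fold. At a mean level of 100 rescaled RPKM or more there were 129 miRNAs. Counted among these from the lowest fold, miR-671-3p was in place 2, miR-151a-5p in place 4 and miR-423-5p in place 5. miR-423-3p was in place 10 and miR-151a-3p in place 27. The members with the lowest folds are thus not the most extreme of all measured miRNAs, where miR-671-3p was in place 13 and miR-423-5p in place 18.

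**Figure D2:**
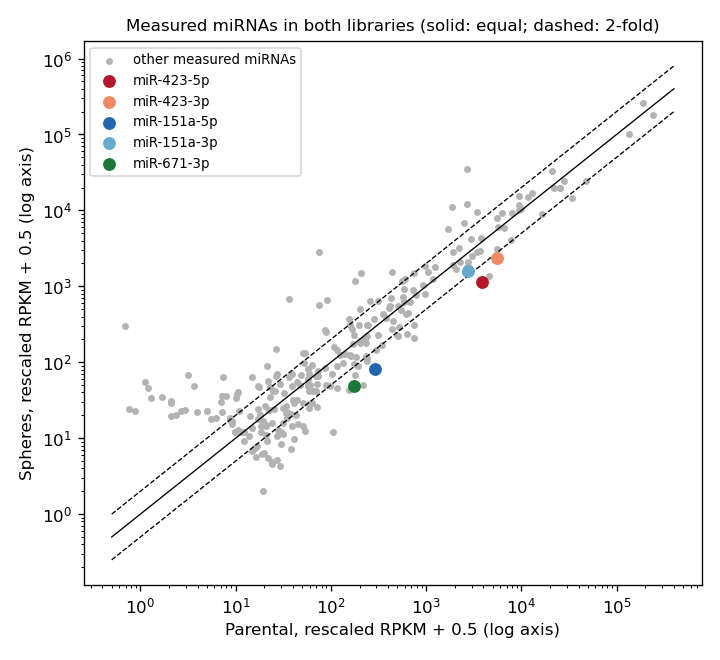
Rescaled RPKM + 0.5 in the parental (x) and the sphere library (y) for the 269 measured miRNAs, on log axes, with the 5 members in colour. The solid line marks equal shares and the dashed lines 2-fold. 4 of the members lie below the lower dashed line and miR-151a-3p just above it.

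On the deposited scale all 5 members were lower in spheres, by 16.4-fold (miR-423-5p), 11.3-fold (miR-423-3p), 17.2-fold (miR-151a-5p), 8.19-fold (miR-151a-3p) and 17.7-fold (miR-671-3p). On that scale 79.6% of measured names passed the 2-fold rule and the median log2 fold was -2.25. The members' log2 folds as deposited ran from -4.14 for miR-671-3p to -3.03 for miR-151a-3p. All 5 were below the median of measured miRNAs on both scales. Nothing is read from this, since the members were chosen for low sphere values. The 2 scales differ by nearly the same shift for every measured miRNA (-2.27 in log2), so they are not separate checks.

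The ratio of 2 arms within a library does not depend on how the columns are scaled. Both arms of 50 hairpins were measured, and in 6 of these the arms were within 2-fold of each other in parental cells, miR-423 among them. The 5p arm made up 41.3% of the signal of both arms in parental cells (95% exact interval 40.8% to 41.8%) and 32.6% in spheres (30.7% to 34.5%). The 3p arm was thus 1.42 times the 5p arm in parental cells and 2.07 times in spheres. On the log2 scale the ratio of 5p to 3p moved by -0.54 (exact conditional interval -0.67 to -0.41). Added together, both arms were 2.69-fold lower in spheres (2.58 to 2.81).

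In miR-151a the 3p arm dominated in both libraries. The 5p arm made up 9.59% of the signal of both arms in parental cells (9.11% to 10.1%) and 4.80% in spheres (3.64% to 6.20%). The 3p arm was thus 9.42 times the 5p arm in parental cells and 19.8 times in spheres, a move of -1.07 in the log2 ratio of 5p to 3p (-1.50 to -0.68). Added together, the arms were 1.79-fold lower in spheres (1.69 to 1.90), close to the value of the 3p arm alone. As in miR-423, the less abundant arm had the larger deficit.

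miR-671 did not show that pattern. Its opposite arm, miR-671-5p, had 406 RPKM in parental cells and 38.6 RPKM in spheres, or 15.3 and 7.01 rescaled RPKM, the latter on an estimated 5 reads. The 5p share was 8.04% in parental cells (6.32% to 10.1%) and 12.8% in spheres (4.16% to 27.9%), so a shift either way was not detectable at this depth. miR-671-5p was 2.19-fold lower in spheres, with an interval from 0.878 to 7.16 that includes no difference.

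Set beside the other hairpins, the arm shifts of miR-423 and miR-151a were not extreme. The ratio of 5p to 3p was at least 2-fold lower in spheres in 15 of the 50, or 30.0%, miR-151a included. The median shift was 0.16, with quartiles of -1.14 and 0.68. Counted from the largest shift towards 3p, miR-151a was in place 15, miR-423 in place 17 and miR-671 in place 41. The arm that was less abundant in parental cells had the lower fold of the pair in 33 of the 50.

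Both arms were at least 2-fold lower in 4 of the 50 hairpins, namely miR-423, miR-671, miR-486 and miR-18a, and 1 arm alone in 14 others. In miR-486, miR-671 and miR-18a the scarcer arm had an estimated 5 sphere reads or fewer, while in miR-423 it had 783.

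**Figure D3:**
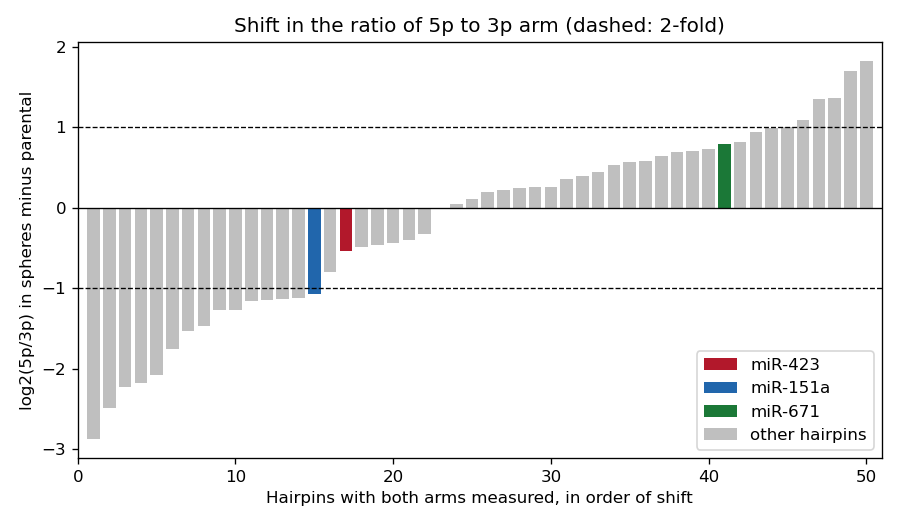
Difference between spheres and parental cells in log2 of the ratio of 5p to 3p arm (rescaled RPKM + 0.5), for 50 hairpins with both arms measured, in order of the shift. miR-151a (-1.07) and miR-423 (-0.54) lie on the side of the 3p arm and miR-671 (0.79) on that of the 5p arm.

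Reads of some members can be shared with other names. miR-151b, whose annotated sequence is contained in that of miR-151a-5p, had 1651 RPKM in parental cells and 159 RPKM in spheres, or 62.2 and 28.9 rescaled RPKM. It was 2.15-fold lower in spheres (1.36 to 3.59). How the authors divided reads between these names is not given in the sources used here. miR-151b held 17.7% of the summed signal of both names in parental cells (15.9% to 19.7%) and 26.3% in spheres (16.8% to 37.8%). The sum was 3.20-fold lower in spheres (2.54 to 4.09), and with it as the 5p arm the shift of miR-151a was -0.91 (-1.28 to -0.56). The 5p arm was thus lower in the summed value too, by a smaller ratio.

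Both arms of miR-3184, annotated on the strand opposite to miR-423, were listed at 0 in both libraries. As a one-sided 95% limit of counting error, a 0 can stand for 3 reads, which is 17.5 RPKM for parental cells and 24.2 RPKM for spheres. miR-3184-3p occupies the same 23 positions as miR-423-5p. The values at this locus were thus all listed under the miR-423 names.

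The miR-28 family is related to miR-151a in sequence. Of 5 names on its list (miR-28-5p, miR-28-3p, miR-708-5p, miR-708-3p and miR-151b), 3 were measured, 2 were at least 2-fold lower and none was higher, beside 19.0% lower among all measured miRNAs. Among the 2 is miR-151b, which may share reads with a member and so is not independent of how the members were chosen. miR-28-3p, hosted by LPP, went from 498 to 231 rescaled RPKM, a 2.16-fold lower share (1.84 to 2.55). Its opposite arm miR-28-5p had 43.7 and 31.6 rescaled RPKM, 1.38-fold lower with an interval of 0.885 to 2.27 that includes no difference. In miR-28 the 3p arm, which was the more abundant one, was thus the arm past 2-fold, while in miR-151a it was the scarcer 5p arm. The interval of miR-28-5p includes the 2.16-fold of miR-28-3p, so a difference between the arms of miR-28 was not shown. miR-708-5p and miR-708-3p were not measured, with at most 6 estimated reads in a library.

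For each member the measured miRNA nearest to it in level in both libraries was looked up, by Euclidean distance over the 2 log2 values. The nearest to miR-423-5p was miR-92b-3p at a distance of 0.33, with 4551 (parental) and 1363 (spheres) rescaled RPKM. The nearest to miR-423-3p was miR-98-5p at 0.38, with 5557 and 3079 rescaled RPKM. For miR-151a-5p it was miR-148a-5p at 0.46, with 239 and 105 rescaled RPKM, and for miR-151a-3p it was miR-320b at 0.11, with 2712 and 1730. miR-671-3p was nearest to miR-27b-5p at 0.23, with 156 and 42.5 rescaled RPKM. 2 of these neighbours, miR-148a-5p and miR-27b-5p, are the scarcer arms of their hairpins.

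After rescaling, other miRNAs inside protein-coding genes lay on both sides of the parental level. A fixed list held 40 other miRNAs within protein-coding genes, each by its more abundant arm, except miR-16-2, which entered by its 3p arm. miR-486-5p, miR-28-3p and miR-708-3p were on this and on another list. Of the 40, 35 were measured, 8 were at least 2-fold lower, 10 were at least 2-fold higher and 17 lay within 2-fold. Over all 269 measured miRNAs 51 were lower (19.0%) and 62 higher, so that 42.0% were past 2-fold in either direction. The list's median log2 fold was -0.33, and -2.60 as deposited. On the deposited scale 27 of the 35 were at least 2-fold lower, beside 79.6% of all measured miRNAs. The most abundant members by the mean of both libraries were miR-26a-5p (0.30), miR-30e-5p (0.55), miR-25-3p (-0.91) and miR-103a-3p (1.75, the only one of the 4 past 2-fold in either direction). As deposited all 4 were negative, from -3.18 for miR-25-3p to -0.51 for miR-103a-3p.

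By the annotation, of 97 measured miRNAs with all their hairpins on the same strand inside a protein-coding gene, the 3 matched members included, 21 were at least 2-fold lower (21.6%) and 16 higher. Without these 3 members it was 18 of 94 (19.1%). Of another 94 with no such hairpin, 16 were lower (17.0%) and 23 higher. The other measured miRNAs were 7 with hairpins of both kinds, of which 1 was lower, and 71 not placed, both arms of miR-151a among them, of which 13 were lower (18.3%).

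The 3 members with a matched sequence had a high content of G and C: 56.5% in miR-423-5p, 65.2% in miR-423-3p and 66.7% in miR-671-3p. The median of the 217 measured miRNAs with a sequence was 47.8%, and 14 of these 217 had at least the content of miR-671-3p. In the tertile with the highest content, 21 of 69 miRNAs were at least 2-fold lower in spheres (30.4%), the 3 members among them. Since these 3 were chosen for low sphere values, they raise the share of this tertile by selection, although most of the 21 were not members. In the middle tertile it was 10 of 76 (13.2%) and in the lowest tertile 10 of 72 (13.9%). The share at least 2-fold higher was 20.3%, 21.1% and 23.6% in the same order. Across these 217 miRNAs, which share 2 libraries, content and log2 fold had a Pearson r of 0.10 and a Spearman rho of -0.05, which differ in sign. The part of base content in the members' values was not tested.

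**Figure D4:**
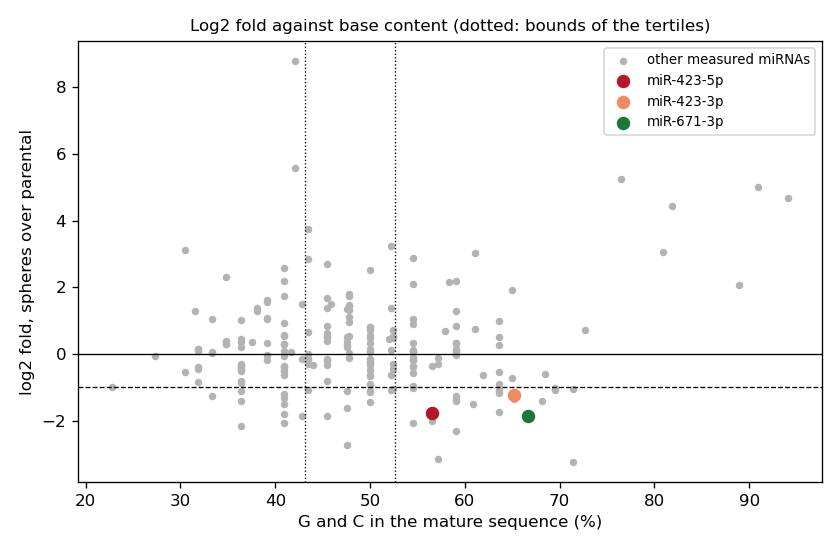
Share of G and C in the mature sequence (x, percent) and log2 fold of rescaled RPKM + 0.5, spheres over parental (y), for 217 measured miRNAs with a RefSeq sequence. Dotted lines bound the tertiles, and the dashed line marks 2-fold lower. miR-423-5p, miR-423-3p and miR-671-3p lie in the highest tertile below the dashed line.

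The labels name serum, which can carry miRNAs, for the parental culture and not for the spheres, so markers of blood cells and serum are given beside these values. Of 8 blood and serum names, 1 was measured: miR-486-5p, abundant in erythroid cells, with 741 (parental) and 207 (spheres) rescaled RPKM. The list summed to 745 and 241 rescaled RPKM, and its 7 other names to 3.78 and 34.1, higher in spheres. Of these, miR-142-5p had 3.25 (parental) and 12.3 (spheres) rescaled RPKM, miR-150-5p 0 and 13.2, and the erythroid miR-451a 0.44 and 5.86, all on few reads. In RPKM as deposited, miR-142-5p was lower in spheres, with 86.2 (parental) and 67.6 (spheres). On that scale miR-150-5p (0 and 72.7 RPKM) and miR-451a (11.7 and 32.3 RPKM) were still higher in spheres. Both arms of miR-144 were listed at 0 in both libraries. Liver-specific miR-122-5p had 0 RPKM in each library. The mesenchymal list had 1 of 4 members measured, miR-143-3p, and summed to 27.9 (parental) and 75.1 (spheres) rescaled RPKM. In RPKM as deposited, miR-143-3p was lower in spheres, with 686 (parental) and 365 (spheres), a log2 fold of -0.91. The part of serum in the members' values was not tested.

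The scaling set the size of the members' folds. Each alternative to the column sum moved all folds further down, so a negative fold could not change sign under any of them. The trimmed mean, the median of ratios and the sum without the 20 most abundant miRNAs moved all folds by -0.15, -0.21 and -0.27 in log2. Under the last of these miR-151a-3p also passed 2-fold, at -1.04, so that all 5 members were lower, against 24.5% of measured miRNAs. The upper quartile over all values above 0 moved the folds by -1.60 and put 70.3% of measured names past 2-fold lower. Over the measured miRNAs alone, an alternative chosen after seeing the data, the upper quartile moved them by -0.22.

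**Figure D5:**
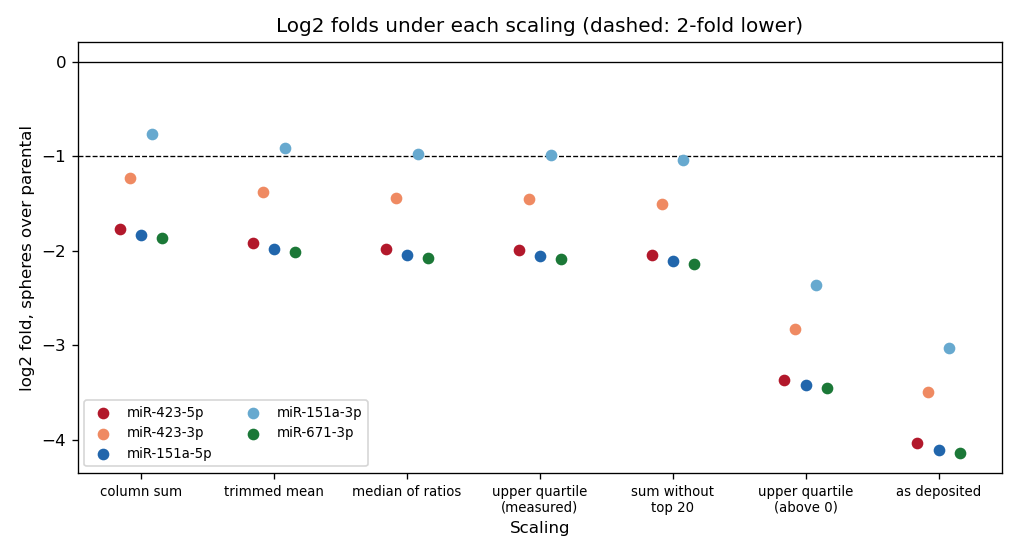
Log2 fold of each of the 5 members, spheres over parental, under 7 scalings; the dashed line marks 2-fold lower. All points lie below 0, and miR-151a-3p lies between -0.77 (column sum) and -3.03 (RPKM as deposited).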

How the data were processed

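Small RNA of 1 parental and 1 sphere library of FaDu was sequenced after TruSeq small RNA preparation with size fractionation, per the labels' protocols. The authors deposited 1 RPKM value for each of 2038 mature names, per the file headers, without counts. The submitters' processing notes name hg19. The aligner, the miRNA annotation and the handling of shared reads were not given in the sources used here. From RPKM, Python 3.11.15 (numpy 2.4.6, scipy 1.17.1, pandas 2.3.3) computed rescaled values (column sum of 1000000), log2 folds with a prior of 0.5, and estimated reads (RPKM over the 1-read value, 22 nt). The filter kept names averaging 10 rescaled RPKM or more. Intervals are 95% exact (Clopper-Pearson, Poisson or conditional odds ratio) on estimated reads. PCR copies are not independent molecules. Host genes came from GENCODE release 29 and sequences from RefSeq, matched by name for 1714 of the 2038 names. The calls and intervals were tried on simulated data only. The simulated counts had the Poisson error that the intervals assume, so they do not check the intervals for other error. The members and lists were chosen with earlier results of these data known. Named miRNAs are the members, their opposite arm, names sharing sequence or locus, the miR-28 family, the nearest measured miRNA of each member and up to 4 of each list. miR-486 and miR-18a, among hairpins low in both arms, and the arms of miR-144 were named after their values were seen. With 1 library per group no test between groups was possible.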

Additional observations from a re-analysis of the deposited data

How the results depend on the processing

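All log2 folds of the 5 members were negative under each scaling and prior tried. No other sign was possible, since each alternative scaling moved all folds down and a prior cannot change a sign. Priors of 5 and 0.05 moved no fold beyond its counting interval. As deposited the folds were -4.04 (miR-423-5p), -3.50 (miR-423-3p), -4.10 (miR-151a-5p), -3.03 (miR-151a-3p) and -4.14 (miR-671-3p). With the upper quartile over values above 0 they were -3.36, -2.82, -3.42, -2.36 and -3.45 in the same order. These 2 scalings gave 214 and 189 measured miRNAs at least 2-fold lower, in place of 51. For miR-423-5p, miR-423-3p and miR-151a-3p the other scalings also moved the fold beyond its narrow counting interval: the trimmed mean to -1.92, -1.38 and -0.92, the median of ratios to -1.98, -1.44 and -0.97, and the sum without the 20 most abundant to -2.04, -1.50 and -1.04. The upper quartile of measured miRNAs, added after seeing the data, gave -1.99, -1.45 and -0.99. Adding both arms, also chosen afterwards, gave -1.43 for miR-423 (both arms) and -0.84 in place of miR-151a-5p. With no filter 180 miRNAs were lower, and at a mean of at least 100 it was 18, by construction. The number of members at least 2-fold lower was 4 or 5 throughout. Over the scalings, the share of all measured miRNAs that passed the same rule ran from 19.0% (column sum) to 79.6% (as deposited). The members were chosen from this contrast, so nothing is read from their count. Without a prior, the arm shifts stayed within their intervals. Multiplying by length left the miR-423 shift at its value without a prior (-0.54). This was fixed in advance, since an arm has the same length in both libraries. For the same reason length could not move the shift of miR-151a, whose lengths were not matched and for which this was not run. Taking 1 read as 21 or 23 nt moved the estimated sphere reads of each member within its Poisson interval. This was not run for the parental reads, whose intervals are narrower in proportion. Depth limits miR-671-3p (32 sphere reads), miR-151a-5p (55) and above all miR-671-5p (5). No paired analysis was possible because each group has a single library, and for the same reason no replicate could be left out.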
